A study of Mus musculus with 2 samples.

Results

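The genes described here are 10 targets of interferon gamma: 5 guanylate-binding proteins (Gbp2, Gbp3, Gbp4, Gbp5 and Gbp7), 4 immunity-related GTPases (Igtp, Irgm1, Irgm2 and Iigp1) and the tryptophan-degrading enzyme gene Ido1. They were chosen by symbol, and all 10 were found among the 32245 gene symbols listed in both libraries. They were followed as UMIs (unique molecular identifiers, each standing for 1 captured RNA molecule) in single cells of mouse tumours. The study compared 2 droplet libraries of RNA 3′ ends. Tdg_WT stands here for the library with the genotype WT in its label, and Tdg_KO for the library with Tdg KO. The gene Tdg codes for the DNA repair enzyme thymine DNA glycosylase. In both groups the cells came from an allograft, written "allogroft tumour" in the labels, that the series design describes as a subcutaneous KP tumour. Tumours were removed on day 14 from inoculation and dissociated, and immune cells were enriched over Percoll and sorted as live cells with CD45, the pan-leukocyte surface protein. Not given in the labels are the cells that bear the genotype (tumour, host or both), the strain and age of the mice and the number of tumours per library. No other agent is named.

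Interferon gamma is released by activated T and NK cells and binds a receptor found on most cells. Signalling through the kinases JAK1 and JAK2 acts on target genes through GAS elements in DNA and raises IRF1, which binds interferon-stimulated response elements (ISRE). Guanylate-binding proteins and immunity-related GTPases assemble on membranes around intracellular microbes, and some of them take part in inflammasome activation and autophagy. IDO1 converts tryptophan to kynurenine, which restrains T cells and is known from dendritic cells, macrophages and tumour cells.

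The RefSeq promoter table (build GRCm38.p6, which has the coordinates of mm10) held 8 promoters of 7 members, and Gbp4, Iigp1 and Ido1 had none in it. In the 250 bases before the start site, 7 of 8 promoters held the ISRE core (GAAA, any 2 bases, GAAA) and 4 of 8 held the GAS letters TTCNNNGAA, on either strand. Among all 32851 promoters in the table, 2.98% held the ISRE core, 7.02% the GAS letters and 0.332% both. In the sequences below the matches are in capitals, and an ISRE core on the other strand starts and ends in TTTC. The 4 stretches printed here are those of Igtp, Irgm2, Gbp7 and Gbp2. They are all written 5′ to 3′ on the plus strand, from chr11:58199496-58199546 (Igtp), chr11:58214887-58214937 (Irgm2), chr3:142530215-142530307 (Gbp7) and chr3:142620589-142620628 (Gbp2).
Igtp: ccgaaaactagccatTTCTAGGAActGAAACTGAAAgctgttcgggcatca
Irgm2: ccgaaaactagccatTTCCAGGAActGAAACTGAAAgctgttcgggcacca
Gbp7: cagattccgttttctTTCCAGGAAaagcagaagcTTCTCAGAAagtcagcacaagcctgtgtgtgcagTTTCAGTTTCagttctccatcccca
Gbp2: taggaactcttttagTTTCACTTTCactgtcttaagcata
The Igtp and Irgm2 stretches were the same at 49 of 51 bases, each with a GAS match, 2 other bases and an ISRE core in a row. Gbp7 held 2 GAS matches before its ISRE core, at 106 and 87 bases before the start site in the table. For Gbp7 and Irgm2 the bases after that start were not found near the 5′ end of an annotated transcript, so their positions are less certain. The Gbp2 stretch held the ISRE core alone, 59 bases before the RefSeq start, and its last 27 bases lie within the first annotated exon. A match describes the letters only and says nothing of binding.

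Per the annotation of the mm10 build, Gbp5 (chromosome 3, 142493978 to 142522344), Gbp7 (142530342 to 142550149), Gbp3 (142560026 to 142573209) and Gbp2 (142620602 to 142638008) lie in this order on the plus strand, and Gbp4 lies on chromosome 5 (105115767 to 105139586, minus strand). The gaps between the members on chromosome 3 are 7997, 9876 and 47392 bases, and other genes within them were not looked for. Irgm1 (48861968 to 48871683, minus strand), Igtp (58199556 to 58207591, plus strand) and Irgm2 (58199618 to 58222782, plus strand) are on chromosome 11. Iigp1 is on the plus strand of chromosome 18, and Ido1 is on chromosome 8 (24584136 to 24597009, minus strand). All are annotated as protein coding. The annotated bounds of Igtp and Irgm2 overlap by 7974 bases on the same strand, and the guanylate-binding protein genes are near copies of each other, so the split of reads between such neighbours is uncertain.

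Depth was 39819010 UMIs over 5604 barcodes for Tdg_WT and 52586319 over 5896 for Tdg_KO. After filtering, 5504 and 5693 cells remained, with medians of 5378 and 6419 UMIs, and 8 barcode sequences occurred in both libraries. Tdg itself, the gene of the genotype label, was at 25.1 CPM in Tdg_WT and 26.5 CPM in Tdg_KO (ratio 1.06, 0.974 to 1.15). CPM is the UMIs of a gene scaled to 1000000 UMIs of the cells summed. A 3′ count does not check a deletion elsewhere in the gene. The labels also do not say whether the sorted immune cells bear the genotype at all or only the grafted tumour cells do, and neither point was tested. Tdg_KO therefore means throughout the library labelled as the knockout. Mixed barcodes, with T cell genes beside phagocyte genes, were 4.96% and 10.5% of cells, and the doublet caller marked 0 barcodes, so it removed none. Cells were grouped by marker genes into 15 classes that each had 30 or more cells per library, while 17.8% and 25.8% of cells stayed unnamed.

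With 1 library per group there is no replicate and no test. Each ratio is Tdg_KO over Tdg_WT with an exact Poisson 95% interval in parentheses that covers counting error only, not the spread between tumours. A gene was taken as measured in a class with at least 50 UMIs over both libraries, and counted as higher or lower from 1.5-fold.

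Treg-like cells, marked by Foxp3, had the most GTPase RNA of the 15 classes in both libraries, at the same CPM in both. The 9 GTPases together were at 736 CPM in Tdg_WT (2262 UMIs, 481 cells) and at 736 CPM in Tdg_KO (2734 UMIs, 527 cells), a ratio of 1.00 (0.946 to 1.06). The next classes of Tdg_WT lay far below, with gamma-delta T-like cells at 317 CPM, naive T-like cells at 298 CPM and macrophage-like cells at 297 CPM, 3 values with overlapping counting intervals. In Tdg_KO the second place went to macrophage-like cells at 386 CPM, followed by migratory DC-like cells at 379 CPM, basophil-like cells at 358 CPM and neutrophil-like cells at 356 CPM, again with overlapping intervals. The lowest levels of both libraries were those of cDC1-like cells (64.5 and 146 CPM) and cDC2-like cells (76.2 and 119 CPM), the conventional dendritic cells.

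**Figure D1:**
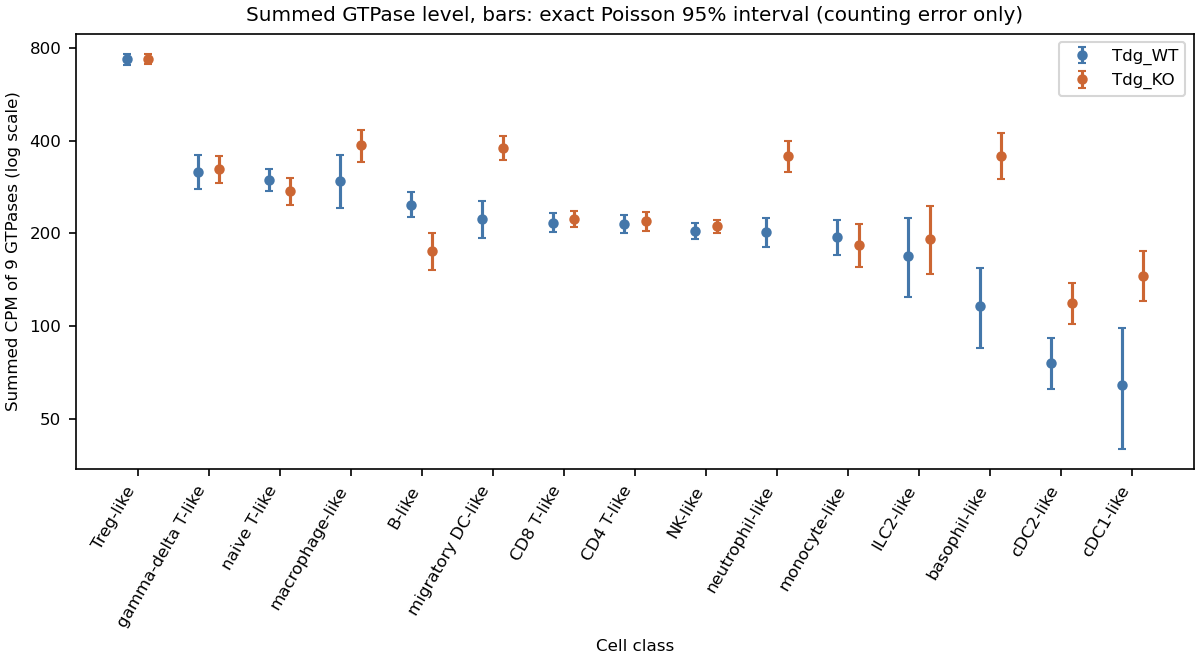
Summed CPM of the 9 GTPases (vertical axis, log scale) in each of the 15 cell classes (horizontal axis), with blue points for Tdg_WT and orange points for Tdg_KO and bars for the exact Poisson 95% interval. Treg-like cells stand at 736 CPM in both libraries, and the orange points lie above the blue ones in neutrophil-like, migratory DC-like, basophil-like, cDC1-like and cDC2-like cells.

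Treg-like cells had medians of 4949 and 5582 UMIs per cell, and cDC2-like cells medians of 11999 and 12427. For thinning, cells under 1000 UMIs were left out and every other cell was reduced to 1000 UMIs. Of the thinned cells, 45.2% of Treg-like cells in Tdg_WT and 49.1% in Tdg_KO held at least 1 GTPase UMI, against 8.47% and 11.4% of cDC2-like cells. Without thinning the shares were 86.7% and 87.1% of Treg-like and 45.4% and 53.9% of cDC2-like cells. The ratio of the Treg-like sum was 1.16 after thinning, against 1.00 without it. No class here is known to lack these genes, so no background share from free RNA can be given.

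Among Treg-like cells the immunity-related GTPase Igtp, a guard of vacuole membranes, was at 215 CPM in Tdg_WT and 192 CPM in Tdg_KO (0.895, 0.804 to 0.997), with a UMI in 52.2% and 52.6% of cells. Gbp7 was at 159 and 181 CPM (1.13, 1.01 to 1.28), Gbp3 at 84.6 and 98.0 CPM (1.16, 0.986 to 1.36), and Gbp4 at 74.2 and 61.4 CPM (0.828, 0.686 to 0.999). Gbp2 was at 48.8 and 60.9 CPM (1.25, 1.01 to 1.54), Gbp5 at 47.8 and 40.1 CPM (0.839, 0.663 to 1.06) and Iigp1, a GTPase that vesiculates parasite vacuoles, at 45.2 and 48.7 CPM (1.08, 0.859 to 1.35). All 9 GTPases were measured in Treg-like cells and none was 1.5-fold apart, where 2.85% of all measured genes of the class were as much higher and 2.42% as much lower. Irgm2, a regulator of the other immunity-related GTPases, was at 31.2 and 26.7 CPM (0.854, 0.638 to 1.14) and Irgm1, which has the same role and acts in autophagy, at 29.9 and 27.5 CPM (0.918, 0.685 to 1.23).

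The levels of single members ranked the classes differently. Treg-like cells were first in both libraries for Gbp3, Gbp4, Gbp7, Igtp, Irgm2 and Iigp1. Gbp2 was highest in macrophage-like cells, at 102 and 110 CPM, followed by neutrophil-like (59.6 and 95.6 CPM) and migratory DC-like cells (50.1 and 96.6 CPM). Gbp5, which promotes inflammasome assembly, was highest in Treg-like cells of Tdg_WT (47.8 CPM) and in migratory DC-like cells of Tdg_KO (59.0 CPM), with migratory DC-like cells of Tdg_WT close by at 41.6 CPM. Irgm1 was led by other classes, which were naive T-like (34.4 CPM), monocyte-like (31.8 CPM) and CD4 T-like cells (30.6 CPM) in Tdg_WT and gamma-delta T-like (41.5 CPM) and monocyte-like cells (39.5 CPM) in Tdg_KO.

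**Figure D2:**
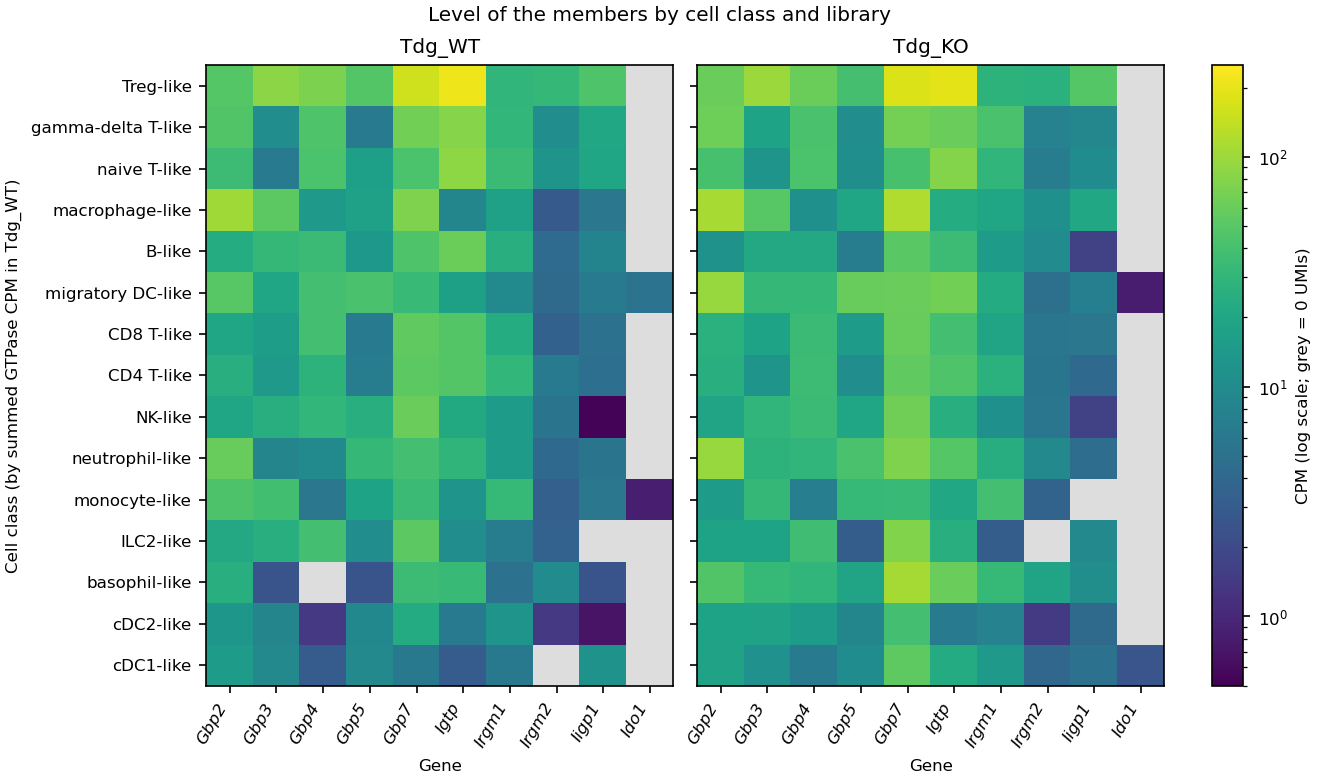
CPM of each of the 10 genes (columns) in each cell class (lines, ordered by the summed GTPase CPM of Tdg_WT) for both libraries, on a log colour scale with grey for 0 UMIs. The top line, Treg-like cells, holds the brightest cells for Igtp (215 and 192 CPM) and Gbp7 (159 and 181 CPM), and the Ido1 column is grey in most classes.

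Over the 30 sums of 15 classes and 2 libraries, the 36 pairs of GTPases had a median Pearson r of 0.45, from 0.23 (Gbp2 with Gbp4) to 0.81 (Igtp with Irgm2, the neighbours whose annotated bounds overlap). These sums share libraries, depth and cell composition, and the values describe them without a test. The 4 genes whose level followed the summed GTPases most closely, among those reported here, were Nek1 (r = 0.77), Syt11 (0.77), Maf (0.76) and Timp2 (0.75), over the same 30 sums.

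Between the libraries, 68 of the 150 pairs of a member and a class were measured, of which 12 (17.6%) were at least 1.5-fold higher in Tdg_KO and 6 (8.82%) at least 1.5-fold lower. Over all genes measured in the same 15 classes, the shares were 8.30% higher and 3.36% lower. The higher pairs were spread over neutrophil-like, migratory DC-like, macrophage-like, cDC2-like, basophil-like, CD8 T-like and CD4 T-like cells, and the lower pairs over B-like, monocyte-like and naive T-like cells. Gbp7 was measured in 13 classes and counted as higher in 5 and lower in none. The ratio was above 1 for 37 of the 68 pairs. A minimum of UMIs lets a gene pass through the library where it is high, so the unmeasured 82 pairs are not covered by these counts.

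**Figure D3:**
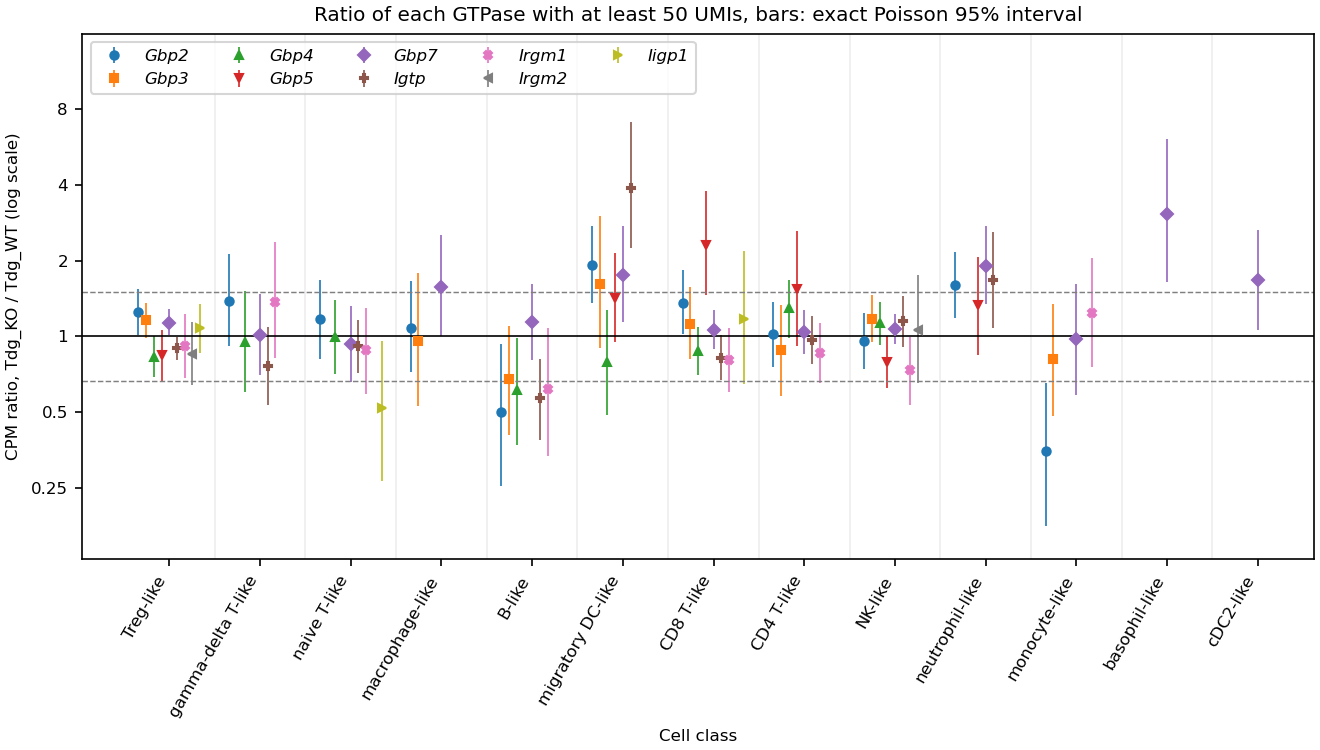
Ratio of CPM, Tdg_KO over Tdg_WT (vertical axis, log scale), of each GTPase with at least 50 UMIs in a class (horizontal axis), with a colour and symbol per gene, bars for the exact Poisson 95% interval and dashed lines at 1.5-fold either way. The points of Treg-like, CD4 T-like and NK-like cells lie within 1.5-fold of 1, apart from Gbp5 in CD4 T-like cells at 1.54, those of neutrophil-like cells above 1 and those of B-like cells below 1 except for Gbp7 at 1.14.

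Neutrophil-like cells, short-lived phagocytes from blood, had more GTPase RNA in Tdg_KO. The summed level was 202 CPM in Tdg_WT (336 UMIs, 689 cells) and 356 CPM in Tdg_KO (309 UMIs, 241 cells), a ratio of 1.76 (1.5 to 2.06). Gbp2 was at 59.6 and 95.6 CPM (1.60, 1.18 to 2.17), Gbp7 at 39.1 and 74.9 CPM (1.91, 1.34 to 2.74), and Igtp at 28.9 and 48.4 CPM (1.67, 1.08 to 2.59). These 3 passed 1.5-fold among the 4 members measured, where 21.7% of all measured genes of the class were as much higher and 6.83% as much lower. Gbp5 was at 31.3 and 41.5 CPM (1.33, 0.842 to 2.07).

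The median log2 ratio of the 4 measured members was 0.71, against 0.18 for all measured genes of neutrophil-like cells. Gbp3 and Gbp4 had too few UMIs to be counted, with ratios of 3.28 (1.63 to 6.86) from 14 and 24 UMIs and 3.11 (1.61 to 6.21) from 16 and 26 UMIs. The neutrophil-like cluster led by G0s2 was at 206 and 361 CPM (1.75, 1.48 to 2.08). Without the barcode richest in GTPase UMIs of each library its ratio was 1.83 (1.53 to 2.18). The cluster led by S100a9 was at 186 and 304 CPM (1.64, 0.973 to 2.68) from 58 and 24 UMIs. Without the richest barcodes it was at 167 and 166 CPM (0.995, 0.497 to 1.85), so its higher level rested on single barcodes.

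GTPase UMIs of neutrophil-like cells lay in few cells. The tenth of cells with the most held 85.7% of them in Tdg_WT and 82.5% in Tdg_KO, against 37.5% and 34.9% for Treg-like cells. A GTPase UMI was found in 17.0% of neutrophil-like cells of Tdg_WT and 25.7% of Tdg_KO, at medians of 1801 and 2235 UMIs per cell, and after thinning in 9.0% and 13.1%. Barcodes that also held genes of another lineage were 1.16% and 3.73%, and without them the ratio of the sum was 1.91 (1.61 to 2.26). Ifng, the ligand gene, had 79 UMIs in these cells, at 18.1 and 56.5 CPM (3.13, 1.95 to 5.10). The class was 12.5% of the cells of Tdg_WT and 4.23% of those of Tdg_KO, and the sum of its 4 platelet marker genes was 66.8 and 1.15 CPM (3 and 1 of them detected). The part of RNA from other cells in these values was not tested.

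Migratory DC-like cells, mature dendritic cells marked by Fscn1 and Ccl22, also had more GTPase RNA in Tdg_KO. Their sum was 222 CPM in Tdg_WT (208 UMIs, 89 cells) and 379 CPM in Tdg_KO (463 UMIs, 81 cells), a ratio of 1.71 (1.45 to 2.02). Igtp had the widest difference, at 17.1 and 66.3 CPM (3.89, 2.25 to 7.12). It was found in 13.5% and 27.2% of cells, and 1 barcode held 19 of its 81 UMIs in Tdg_KO. Without the barcode richest in GTPase UMIs of each library the Igtp ratio was 3.47, and without barcodes of another lineage it was 2.73.

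The guanylate-binding proteins of migratory DC-like cells followed with smaller ratios. Gbp2 was at 50.1 and 96.6 CPM (1.93, 1.36 to 2.76), Gbp7 at 34.1 and 59.8 CPM (1.75, 1.14 to 2.74) and Gbp3 at 19.2 and 31.1 CPM (1.62, 0.902 to 3.02). Gbp5 was at 41.6 and 59.0 CPM (1.42, 0.947 to 2.15), and Gbp4 was on the other side of 1, at 39.5 and 31.1 CPM (0.788, 0.488 to 1.27). Of the 6 members measured 4 were thus at least 1.5-fold higher, where 12.2% of all genes of the class were (3.40% were as much lower), and the median log2 ratio was 0.76 against 0.10 for all genes.

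Both clusters of the class had the higher sum in Tdg_KO, at 260 and 405 CPM (1.56, 1.30 to 1.88) in the cluster led by Fscn1, Cacnb3 and Ccl22 and at 125 and 304 CPM (2.43, 1.62 to 3.73) in the cluster led by Fscn1 and Bcl2l14. A GTPase UMI was present in 57.3% and 71.6% of cells and, after thinning, in 16.9% and 29.6%. Barcodes with genes of another lineage were 3.37% in Tdg_WT and 9.88% in Tdg_KO, and without them the ratio of the sum was 1.61 (1.33 to 1.94). Ifng UMIs differed in the same direction, at 49.1 and 90.1 CPM, as did the 4 erythroid marker genes, with a sum of 6.40 and 1180 CPM (2 and 4 of them detected). Their part in the result was not tested.

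The conventional dendritic cells started from the lowest levels. In cDC2-like cells the sum was 76.2 and 119 CPM (1.56, 1.21 to 2.0), or 1.36 (1.02 to 1.80) without barcodes of another lineage, which were 3.36% and 7.83%. Gbp7, the 1 member measured there, was at 23.1 and 38.6 CPM (1.67, 1.06 to 2.66), where 9.11% of all genes were as much higher and 3.18% as much lower, and its ratio was 1.05 at a clustering resolution of 0.5 and 1.00 at 1.5. In cDC1-like cells, which cross-present antigen, the sum was 64.5 CPM from 21 UMIs in 48 cells and 146 CPM from 114 UMIs in 76 cells (2.27, 1.42 to 3.81). No single member reached 50 UMIs there. After thinning the ratio of the sum was 1.02, from few UMIs, with a GTPase UMI in 8.33% of 48 and 9.33% of 75 cells. Barcodes with genes of another lineage were 0% and 11.8% of cDC1-like cells, and without them the ratio was 1.78 (1.07 to 3.07). Ifng had 0 UMIs in those of Tdg_WT and was at 89.8 CPM in Tdg_KO, and its part was not tested.

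Macrophage-like cells were at 297 and 386 CPM (1.30, 1.03 to 1.64), and at 1.18 (0.937 to 1.5) without barcodes of another lineage. Gbp7 was higher there at 75.8 and 119 CPM (1.57, 1.00 to 2.53; 9.11% of all genes were as much higher and 6.99% as much lower), while Gbp2 (102 and 110 CPM, 1.08, 0.718 to 1.66) and Gbp3 (52.4 and 50.3 CPM, 0.959, 0.530 to 1.79) had ratios nearer to 1. The Gbp7 ratio was 1.43 without barcodes of another lineage, 1.19 after thinning and 1.34 with every cell weighted equally, and it passed 1.5-fold in 8 of 12 alternatives. The 5 fibroblast marker genes summed to 2.91 and 244 CPM in macrophage-like cells (1 and 4 of them detected) and the 4 platelet marker genes to 1798 and 420 CPM (2 and 1 of them detected), and their part was not tested. Pf4, 1 of the 4 platelet markers, was itself a leading gene of the macrophage-like cluster led by Apoe, so that sum does not mark platelets alone.

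In monocyte-like cells the sum was 195 and 183 CPM (0.940, 0.762 to 1.16). After thinning the ratio of the sum was 2.21, with a GTPase UMI in 11.5% and 24.1% of cells. Barcodes with genes of another lineage were 7.26% and 20.3%, and without them the ratio was 0.926 (0.729 to 1.17). Ifng was at 10.9 and 34.7 CPM (3.19, 1.61 to 6.69), and its part was not tested. Gbp2 was at 44.3 CPM from 53 UMIs and 15.6 CPM from 13 UMIs (0.351, 0.176 to 0.653), where 5.89% of all genes of the class were as much lower and 9.83% as much higher. One barcode held 24.5% of the 53 UMIs, the ratio was 0.467 without the richest barcodes and 1.03 after thinning, and it was 1.42 when mixed clusters were given names too.

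Basophil-like cells had the widest ratio of the sum, 116 and 358 CPM (3.09, 2.19 to 4.42), from 46 UMIs in 75 cells and 132 UMIs in 41 cells. One barcode held 35.6% of the UMIs in Tdg_KO and another 32.6% of those in Tdg_WT. Barcodes with genes of another lineage were 0% and 7.32%, and without them the ratio was 1.80 (1.20 to 2.72). After thinning it was 0.523. Gbp7, at 35.3 and 108 CPM (3.08, 1.64 to 6.12), was the member measured, in a class where 28.6% of all measured genes were as much higher and 10.6% as much lower. Ifng was at 2.52 and 81.4 CPM in the same cells, from 31 UMIs in all, and its part was not tested.

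B-like cells went the other way. The sum was 248 CPM in Tdg_WT (452 UMIs, 298 cells) and 175 CPM in Tdg_KO (207 UMIs, 192 cells), a ratio of 0.704 (0.595 to 0.832). Gbp2 was at 23.6 and 11.8 CPM (0.501, 0.253 to 0.933), Igtp at 62.6 and 35.5 CPM (0.567, 0.388 to 0.814), Gbp4 at 34.6 and 21.1 CPM (0.610, 0.368 to 0.984) and Irgm1 at 24.7 and 15.2 CPM (0.615, 0.335 to 1.08). These 4 of 6 measured members were at least 1.5-fold lower, where 3.53% of all genes of the class were (5.05% were as much higher), and the median log2 ratio was −0.70 against 0.04.

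Much of this B-like level lay in barcodes that held genes of another lineage as well. Such barcodes were 20.1% of B-like cells in Tdg_WT and 24.0% in Tdg_KO. Without them the sum was 89.9 and 78.6 CPM, with a ratio of 0.875 (0.601 to 1.26). Gbp2 then had a ratio of 0.828 and Irgm1 of 0.725, while Gbp4 stayed at 0.621 and Igtp at 0.460. After thinning the ratio of the sum was 0.907, or 1.24 without those barcodes, and the ratios were 1.16 for Gbp4, 1.08 for Igtp and 4.62 for Irgm1. Gbp4 and Igtp were then each found in 8 of 296 cells of Tdg_WT and 6 of 192 of Tdg_KO, and Irgm1 in 1 and 3. Such counts are too few to set a direction. With every cell weighted equally and no thinning, the ratios were 0.791 for Gbp4, 0.773 for Igtp and 0.779 for Irgm1. Gbp7 was at 45.0 and 51.5 CPM with all barcodes (1.14, 0.808 to 1.61) and Gbp3 at 31.3 and 21.1 CPM (0.675, 0.404 to 1.10). The erythroid marker sum was 6647 CPM in B-like cells of Tdg_WT and 2.53 CPM in Tdg_KO, and Ifng was at 45.0 and 92.0 CPM (2.04, 1.52 to 2.76). Their part was not tested.

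**Figure D4:**
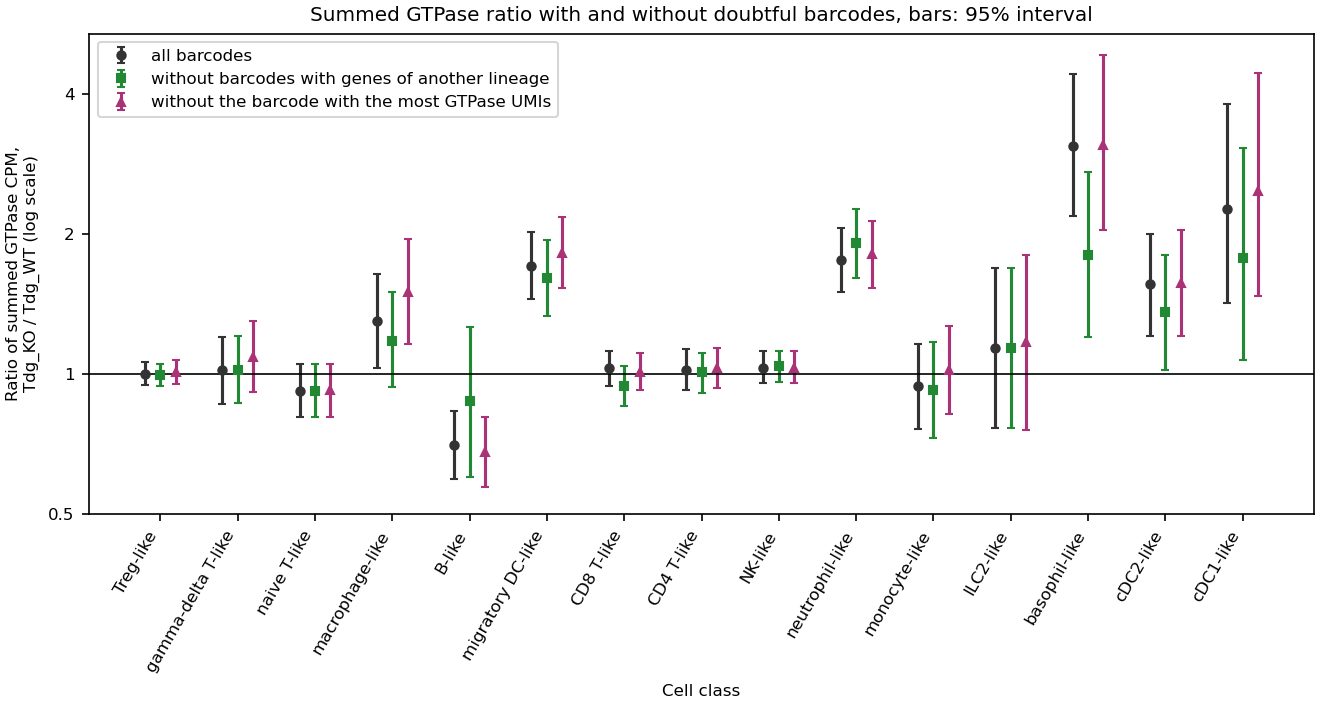
Ratio of the summed GTPase CPM, Tdg_KO over Tdg_WT (vertical axis, log scale), per cell class (horizontal axis), from all barcodes (circles), without barcodes that hold genes of another lineage (squares) and without the barcode richest in GTPase UMIs of each library (triangles), with 95% intervals. Removing mixed barcodes moves B-like cells from 0.704 to 0.875 and basophil-like cells from 3.09 to 1.80 and leaves neutrophil-like (1.76 and 1.91) and Treg-like cells (1.00 and 0.997) nearly where they were.

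The lymphocyte classes other than B-like cells had ratios of the sum close to 1 without thinning. The ratio was 1.03 (0.957 to 1.12) in NK-like cells (204 and 211 CPM), 1.03 (0.940 to 1.12) in CD8 T-like cells (217 and 223 CPM) and 1.02 (0.926 to 1.13) in CD4 T-like cells (215 and 219 CPM). After thinning these ratios were 1.22, 0.923 and 0.969. Gamma-delta T-like cells had 1.02 (0.862 to 1.20), or 0.676 after thinning, naive T-like cells 0.920 (0.809 to 1.05) and ILC2-like cells 1.14 (0.767 to 1.69). In the first 3 classes a difference between these libraries beyond the interval's bounds would have exceeded counting error.

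Single members departed from 1 within those classes. Gbp5 was at 6.61 CPM (25 UMIs) and 15.3 CPM (83 UMIs) in CD8 T-like cells, a ratio of 2.31 (1.46 to 3.77), where 6.44% of all genes were 1.5-fold higher and 1.45% as much lower. It was found in 4.62% and 10.8% of those cells, and the ratio was 1.84 without barcodes of another lineage. By cluster it was 2.58 (1.21 to 6.12) in the cluster led by Cd8a, 1.12 (0.433 to 2.95) in that led by Gzmk, and 4.94 (1.10 to 45.4) and 2.35 (0.816 to 9.28) in those with heat shock genes in the lead, the last of which had T cell and phagocyte genes together in 49.2% of its barcodes.

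In CD4 T-like cells Gbp5 was at 6.82 and 10.5 CPM (1.54, 0.917 to 2.63), where 4.46% of all genes were as much higher and 2.07% as much lower. That ratio was 1.45 without barcodes of another lineage and 1.46 after thinning, both under 1.5-fold. In NK-like cells Gbp5 was at 24.9 and 19.6 CPM (0.789, 0.621 to 1.00), but its ratio was 1.62 after thinning, when 1.78% and 2.78% of cells held a UMI. Irgm1 was at 15.6 and 11.4 CPM (0.731, 0.535 to 0.996) in NK-like cells. In naive T-like cells Iigp1 was at 19.9 and 10.3 CPM (0.517, 0.265 to 0.957), where 3.77% of all genes were as much lower and 4.30% as much higher. The 4 erythroid marker genes of naive T-like cells summed to 8263 and 0.687 CPM (4 and 1 of them detected), and their part was not tested. The remaining measured pairs of these lymphocyte classes lay within 1.5-fold, where 3.46% of all genes were higher and 1.41% lower by that much in NK-like cells and 8.53% and 2.70% in gamma-delta T-like cells.

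Cells in unnamed clusters, described by their leading genes, held both directions as well. A cluster led by Arg1, Mmp12 and Spp1 had a sum of 127 and 255 CPM (2.02, 1.47 to 2.77), or 1.72 without its richest barcodes. A cluster led by Siglech, Cox6a2 and Ccr9 had 549 CPM in 25 cells of Tdg_WT and 164 CPM in 53 cells of Tdg_KO (0.299, 0.239 to 0.372). Without its richest barcodes it was at 394 and 145 CPM (0.368, 0.287 to 0.471). Of its barcodes 61.5% held a Cd8 gene beside Cd4 or Foxp3, and 12.8% held T cell genes beside phagocyte genes. A cluster led by Foxp3, Il2ra and Ikzf4 was at 425 and 422 CPM (0.993, 0.907 to 1.09), close to 1 like the named Treg-like cells. A cluster of low depth (median 883 UMIs), led by Gm26917, Gm42418 and Lars2, was at 630 and 825 CPM (1.31, 0.804 to 2.16). It had 30 and 44 GTPase UMIs, and its level in Tdg_KO was above the 736 CPM of Treg-like cells.

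Ido1 was nearly absent from the immune classes. Over all kept cells it had 8 UMIs in 7 cells of Tdg_WT and 43 UMIs in 5 cells of Tdg_KO, 0.202 and 0.822 CPM. No UMI was found in either library in 12 of the 15 classes. In macrophage-like cells it was at 0 of 97 and 0 of 210 cells, which allows shares of cells with a UMI of up to 3.09% and 1.43% by the limit of 3 counts (3.73% and 1.74% as upper bounds of the exact Clopper-Pearson 95% interval). In cDC2-like cells it was at 0 of 119 and 0 of 115 cells, which allows up to 2.52% and 2.61% by 3 counts (3.05% and 3.16% by the exact bound).

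The migratory DC-like cells of Tdg_WT held 5 of the 8 UMIs, in 4 of 89 cells (4.49%, exact Clopper-Pearson interval 1.24 to 11.1%), and those of Tdg_KO held 1 UMI in 1 of 81 cells (1.23%, 0.0313 to 6.69%). Treg-like cells, with 0 of 481 and 0 of 527 cells and medians of 4949 and 5582 UMIs against 8413 and 9497 in migratory DC-like cells, serve as the background. The ratio in migratory DC-like cells was 0.154 (0.00325 to 1.37), so no difference was detectable at this depth. With 26 of the 30 sums at 0, the genes most like Ido1 across classes (2200002D01Rik and Clu at r = 0.76, Fxyd3, Eno3 and Adgrg6 at 0.73) rest on 4 sums.

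The 43 Ido1 UMIs of Tdg_KO came almost entirely from 1 barcode outside the immune classes. This barcode had 195160 UMIs, 9676 genes and 4.60% mitochondrial UMIs, and it held 1441 UMIs of Krt8, 832 of Krt18 and 651 of Krt19, keratins of epithelial cells, 0 of Epcam, 10 of the CD45 gene Ptprc and 0 of Cd3e. It lay in a small keratin-bearing cluster of 19 cells in Tdg_WT and 22 in Tdg_KO. It held 37 of the 43 Ido1 UMIs (86.0%), 425 Gbp2 UMIs (17.9% of the library's), 245 Iigp1 UMIs (29.2%) and 1138 UMIs of the 9 GTPases together (6.76%).

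Relative to its own depth this barcode stood apart as well. Gbp2 was at 2178 CPM in it against 37.3 CPM in all other kept cells of Tdg_KO, Iigp1 at 1255 against 11.4, Igtp at 635 against 57.1, Gbp3 at 487 against 33.8, Irgm1 at 405 against 21.9 and Gbp5 at 374 against 20.8. Gbp4 (215 against 33.6 CPM), Gbp7 (179 against 76.7) and Irgm2 (102 against 8.62) were higher in it by less or from fewer UMIs. Other interferon gamma targets were high in the same barcode, with Cxcl9, a T cell attracting chemokine, at 356 UMIs and Ubd, a ubiquitin-like modifier, at 173 UMIs (89.6% of the library's). The C1q gene C1qa, a macrophage gene, had 163 UMIs, and whether the barcode holds 1 cell was not tested.

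A second keratin-bearing barcode of Tdg_KO, with 63352 UMIs, held 84 GTPase UMIs (1326 CPM) and 2 Ido1 UMIs. Without the first barcode, the keratin-bearing cluster of Tdg_KO was at 465 CPM from 162 UMIs in 21 cells, against 49.5 CPM from 13 UMIs in 19 cells of Tdg_WT. Median depths of the cluster were 1783 UMIs in Tdg_WT and 7337 in Tdg_KO, and 9 and 10 of the cells had no GTPase UMI.

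**Figure D5:**
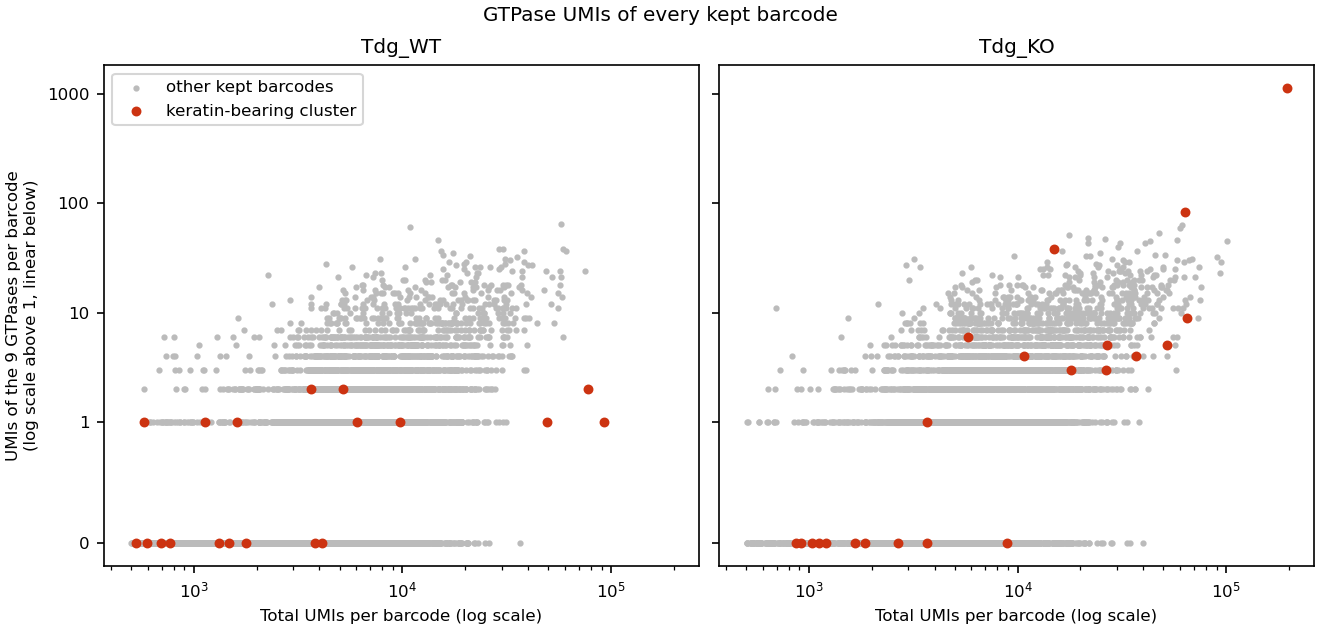
UMIs of the 9 GTPases (vertical axis, log scale above 1 and linear below) against total UMIs (horizontal axis, log scale) of every kept barcode of each library, with the keratin-bearing cluster in red. In Tdg_KO 1 red point stands alone at 195160 total and 1138 GTPase UMIs, and the red points of Tdg_WT have at most a few GTPase UMIs.

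This barcode set several values taken over all kept cells. With it, Gbp2 was at 31.1 and 45.3 CPM (1.45, 1.36 to 1.56), Iigp1 at 12.5 and 16.1 CPM (1.28, 1.15 to 1.44) and Ido1 had a ratio of 4.07 (1.89 to 10.0). Without it, the ratios were 1.20 for Gbp2, 0.913 (0.809 to 1.03) for Iigp1 and 0.571 (0.163 to 1.88) for Ido1. The other members, with all cells, had ratios of 1.27 (1.18 to 1.37) for Gbp3, 1.19 (1.14 to 1.26) for Gbp7, 1.15 (1.05 to 1.26) for Gbp5, 1.05 (0.915 to 1.22) for Irgm2, 1.01 (0.940 to 1.08) for Gbp4, 1.00 (0.921 to 1.10) for Irgm1 and 0.999 (0.946 to 1.05) for Igtp. These values also carry the different cell makeup of the libraries.

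The ligand of the pathway was measured beside its targets. Ifng was lower in Tdg_KO in the classes that held most of it, at 266 and 195 CPM in NK-like (0.733, 0.681 to 0.788), 360 and 169 CPM in CD8 T-like (0.468, 0.430 to 0.509) and 364 and 269 CPM in CD4 T-like cells (0.737, 0.679 to 0.800). It was higher in Treg-like cells at 17.6 and 34.7 CPM (1.98, 1.43 to 2.77), where the GTPase sum was 736 CPM in both libraries. The receptor gene Ifngr1 was at 1344 and 1318 CPM in NK-like cells (0.981, 0.951 to 1.01) and the kinase gene Jak1 at 548 and 608 CPM (1.11, 1.06 to 1.16). Of the 5 ligand and receptor genes, 0 of 4 measured in NK-like cells, 2 of 5 in neutrophil-like and 1 of 5 in migratory DC-like cells were 1.5-fold higher, and none was lower in these 3 classes. Ifng itself was among those counted as higher in the last 2. Of all genes 3.46%, 21.7% and 12.2% were as much higher in these 3 classes and 1.41%, 6.83% and 3.40% as much lower.

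Of 7 transcription factor genes of the pathway, 5 were measured in NK-like cells, and none passed 1.5-fold. Irf8 was at 1108 and 1238 CPM there (1.12, 1.08 to 1.15), Irf1 at 127 and 127 CPM (0.996, 0.903 to 1.10) and Irf9, an interferon regulatory factor, at 19.6 and 22.9 CPM (1.17, 0.914 to 1.5). In neutrophil-like cells 2 of 4 measured were higher and none lower, in migratory DC-like cells 1 of 6 was higher and none lower, and in B-like cells 1 of 6 was higher and none lower, where 21.7%, 12.2% and 5.05% of all genes of these classes were higher. In naive T-like cells 0 of 5 had a ratio above 1 and 1 was 1.5-fold lower, with a median log2 ratio of −0.36 against 0.03 for all genes. Of all genes of that class 3.77% were as much lower and 4.30% as much higher. The inhibitors of the pathway were within 1.5-fold in NK-like cells, among them Socs3 (193 and 218 CPM, 1.13, 1.05 to 1.22), Ptpn2 (72.4 and 73.4 CPM, 1.01, 0.889 to 1.15), Socs1 (76.0 and 69.0 CPM, 0.908, 0.797 to 1.04) and Usp18 (4.74 and 5.36 CPM, 1.13, 0.675 to 1.92).

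Of 20 other interferon gamma targets, such as immunoproteasome subunits and chemokines, 14 were measured in neutrophil-like cells, with 7 higher and 1 lower and a median log2 ratio of 0.56 against 0.18 for all genes. In macrophage-like cells 3 of 12 were higher and none lower (median 0.34 against −0.02), and in migratory DC-like cells 2 of 13 were higher (median −0.03 against 0.10). In B-like cells 0 of 12 were higher and 1 was lower (−0.04 against 0.04), and in cDC2-like cells 0 of 14 were higher and 2 lower (−0.04 against 0.05). Of all genes 21.7% were as much higher in neutrophil-like, 9.11% in macrophage-like, 12.2% in migratory DC-like, 5.05% in B-like and 9.11% in cDC2-like cells. As much lower were 6.83%, 6.99%, 3.40%, 3.53% and 3.18%, in the same order. In NK-like cells, which held most UMIs of this list, Psmb8 was at 464 and 436 CPM (0.940, 0.892 to 0.990), Psme1 at 419 and 436 CPM (1.04, 0.986 to 1.10), Psme2 at 209 and 215 CPM (1.03, 0.952 to 1.11) and Tap2 at 85.6 and 78.6 CPM (0.918, 0.812 to 1.04). The chemokine gene Cxcl10 was the 1 of 13 that passed 1.5-fold there, at 59.5 and 108 CPM (1.82, 1.60 to 2.07). In that class 3.46% of all genes were as much higher and 1.41% as much lower.

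A further list held 18 genes known for induction by type I interferon, which also acts through ISRE elements. In neutrophil-like cells 0 of 10 were higher and 2 lower (median log2 ratio −0.36 against 0.18 for all genes), in cDC2-like cells 0 of 5 were higher and 3 lower (−0.61 against 0.05), and in migratory DC-like cells none of 5 passed 1.5-fold (0.02 against 0.10). In gamma-delta T-like cells 4 of 7 were higher and none lower (0.66 against 0.06), and in CD8 T-like cells 4 of 11 were higher and none lower (0.20 against 0.10). In cDC1-like cells only 3 genes were measured, with a median of 1.25 against 0.10. In CD4 T-like cells 3 of 10 were lower and none higher (−0.22 against 0.07), and in naive T-like cells 0 of 9 had a ratio above 1 and 2 were 1.5-fold lower (−0.29 against 0.03). Of all genes 21.7% were as much higher and 6.83% as much lower in neutrophil-like cells. These shares were 9.11% and 3.18% in cDC2-like, 12.2% and 3.40% in migratory DC-like and 8.53% and 2.70% in gamma-delta T-like cells. They were 6.44% and 1.45% in CD8 T-like, 4.46% and 2.07% in CD4 T-like and 4.30% and 3.77% in naive T-like cells. In Treg-like cells Ifi27l2a was at 2206 and 1867 CPM (0.846, 0.818 to 0.875), Bst2 at 130 and 126 CPM (0.964, 0.842 to 1.10), Isg20 at 120 and 98.3 CPM (0.819, 0.706 to 0.949) and Rsad2 at 6.18 and 13.2 CPM (2.13, 1.23 to 3.84).

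Of 10 further members of the GTPase families, 5 were measured in Treg-like cells and none passed 1.5-fold, with Gbp6 at 62.5 and 54.4 CPM (0.871, 0.711 to 1.07), Gbp8 at 22.4 and 24.0 CPM (1.07, 0.771 to 1.48) and Gbp9 with a ratio of 0.866 (0.606 to 1.24) from 131 UMIs. In CD8 T-like cells 2 of 5 were higher and none lower, where 6.44% of all genes were as much higher. Lower were 1 of 5 in NK-like, 1 of 5 in CD4 T-like, 1 of 4 in naive T-like and the 1 measured in B-like cells. Of all genes 1.41%, 2.07%, 3.77% and 3.53% were as much lower in these classes, in that order. No gene of this list reached 50 UMIs in neutrophil-like or migratory DC-like cells. Of 8 partner genes in autophagy and the inflammasome, 7 were measured in NK-like cells and none passed 1.5-fold. Among them were Gabarapl2 (242 and 239 CPM, 0.988, 0.920 to 1.06), Aim2 (43.7 and 46.4 CPM, 1.06, 0.900 to 1.26), Atg5 (39.1 and 35.2 CPM, 0.899, 0.749 to 1.08), Atg7 (18.2 and 25.4 CPM, 1.39, 1.09 to 1.79) and Casp4 (34.9 and 30.9 CPM, 0.886, 0.729 to 1.08).

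Around Ido1, the other genes of tryptophan catabolism were measured best in cDC2-like cells, where 0 of 6 passed 1.5-fold. Ahr, the receptor that binds kynurenine, was at 178 and 221 CPM (1.24, 1.05 to 1.47), Kmo at 108 and 108 CPM (1.00, 0.795 to 1.26), Kynu at 23.1 and 28.6 CPM (1.24, 0.761 to 2.03) and Haao at 23.1 and 17.9 CPM (0.774, 0.441 to 1.34), all enzymes downstream of Ido1 apart from Ahr. Il4i1, another enzyme that degrades amino acids including tryptophan, was at 38.5 and 40.7 CPM (1.06, 0.718 to 1.56). Transcripts of the downstream steps were thus detected in a class without an Ido1 UMI in either library.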

How the data were processed

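RNA of sorted tumour immune cells was sequenced as 2 single-cell libraries, 1 per group. The authors deposited unnormalised UMI counts for each barcode, from Cell Ranger 6.0.1 per the file headers. Seurat and mm10 are named in the submitters' processing notes without a role. The gene annotation used is not given in the sources used here.

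Cells with 200 or more genes and no more than 10% mitochondrial UMIs were clustered in scanpy 1.11.5 (2000 variable genes without the members and listed genes, 30 components, 15 neighbours, Leiden resolution 1). Classes were named from markers. A cluster with at least 50% of barcodes of mixed lineage stayed unnamed. The counts of a class in 1 library were added up and scaled by their total (CPM). Ratio intervals are exact conditional Poisson 95% intervals. They were tried on simulated Poisson counts only, which lack the gathering of UMIs in few barcodes seen here, so that trial cannot show their coverage for these data. Scrublet marked 0 barcodes.

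The members and lists were chosen with earlier results of these data known. The text names every member and, from each other list, the 3 genes with the most UMIs in the class richest in that list and the most extreme ratio each way, plus Ifng and Tdg. Genes named in the keratin-bearing barcode were chosen after their values were seen. The median ratio of all genes in a class lay up to 0.20 on the log2 scale above 0 (basophil-like cells; 0.18 in neutrophil-like cells). Gbp11, Cxcl11, Mx1 and Mx2 of the lists were not analysed here. Protein sequences were not used here. One gene of the lists is not reported here.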

Additional observations from a re-analysis of the deposited data

Results flagged for a closer look

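Gbp2 had ratios of opposite direction between cell classes under the same contrast, at 1.60 in neutrophil-like and 1.93 in migratory DC-like cells but 0.501 in B-like and 0.351 in monocyte-like cells. Igtp was at 1.67 in neutrophil-like and 3.89 in migratory DC-like cells and at 0.567 in B-like cells. The intervals of these ratios do not include 1, and the difference between the classes was not tested, since each ratio rests on 1 library per group. Ido1 had 37 UMIs in 1 keratin-bearing barcode of Tdg_KO, which lies in a cluster that the class comparisons do not use, while the keratin-bearing cluster of Tdg_WT had 1 Ido1 UMI in 19 cells.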

How the results depend on the processing

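No paired analysis was possible because each group has 1 library, and for the same reason no replicate could be left out. The 12 higher and 6 lower pairs became 1 and 1 after thinning to 1000 UMIs (12 pairs measured), 7 and 2 without barcodes of another lineage (58 measured), 28 and 10 with a minimum of 20 UMIs (97 measured), and 47 and 18 with no minimum (138 with a UMI). Over all genes of the same classes, the shares higher and lower were 6.0% and 4.41% after thinning, 7.10% and 3.48% without those barcodes, 13.8% and 6.11% from 20 UMIs, and 28.4% and 17.2% with no minimum. Over all kept cells of at least 1000 UMIs, thinning gave 1.08 for Gbp2, 1.37 for Gbp4, 1.26 for Gbp5, 1.11 for Igtp, 0.973 for Iigp1 and 0 for Ido1, which reversed. Weighting every cell equally gave 1.18 for Gbp2, 1.18 for Gbp4, 0.992 for Gbp5, 0.879 for Irgm1, 1.05 for Iigp1 and 1.07 for Ido1. Median-of-ratios size factors gave 1.12 for Gbp7 and 0.933 for Igtp. Without the keratin-bearing barcode, an alternative chosen after seeing the data like that of the richest barcodes, Gbp2 was at 1.20, Iigp1 at 0.913 and Ido1 at 0.571, which reversed. Of 815 alternative values of single pairs, 775 stayed within their counting interval and 34 moved out of it, and 6 reversed, which counts only pairs past 1.5-fold whose ratio crossed 1. Of the 34 moved values 14 also crossed 1, as did 51 of the 775. After thinning the B-like ratios were 1.16 for Gbp4, 1.08 for Igtp and 4.62 for Irgm1, Gbp2 in monocyte-like cells was 1.03 and Gbp7 in basophil-like cells 0, and Gbp2 in monocyte-like cells was 1.42 with mixed clusters named. Thinning leaves few UMIs, so depth limits those values. Other causes were not tested.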
